A study of Mus musculus with 13 samples.

Results

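The cytosolic ribosomal protein genes encode the protein parts of the ribosomes that translate nuclear mRNAs. Members were chosen by name: protein-coding genes called Rps or Rpl with a digit, plus Rpsa, Rplp0, Rplp1 and Rplp2, without the S6 kinase genes and without names marked as pseudogenes, and with at least 80 estimated reads summed over the 8 libraries. The rule found 84 of the 35734 genes in the deposited expression table. Of 87 names that fitted, the paralogs Rpl3l, Rpl39l and Rpl10l were under the read minimum, and the member with the fewest reads was Rps23rg1 (371 reads in all), followed by Rps27 (2081). The set holds 77 core ribosomal proteins, 31 of the small and 46 of the large subunit. The other 7 are paralogs or retrogenes (Rps27l, Rps27rt, Rpl22l1, Rpl36al, Rpl7l1, Rps23rg1) and Rps19bp1, a protein that binds Rps19.

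RNA-seq compared retinal cells of CD1 mice of postnatal day 0 that were dissociated, transfected and cultured for 9 h before being sorted for GFP. The control group (4 libraries) received GFP alone. The Ikzf1 group (4 libraries) received Ikzf1-IRES-GFP, so that both proteins come from 1 transcript. The product of Ikzf1 is Ikaros, a transcription factor with zinc fingers. The labels call the sorted cells retinal progenitor cells and each library a biological replicate, and do not name the promoter of the plasmids used for RNA-seq. Fewer cells were sorted per Ikzf1 replicate than per control replicate, which cannot be told apart from the treatment.

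Each ribosome holds 1 copy of most of these proteins, and their genes are among the most highly expressed in growing cells. Their mRNAs belong to the terminal oligopyrimidine (TOP) class: the message begins with a C followed by a run of pyrimidines, through which mTOR signalling and the RNA-binding protein Larp1 control translation. Transcription factors such as Myc are known to raise the genes for ribosomal proteins and for ribosome assembly in dividing progenitors.

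Promoter sequence from RefSeq (GRCm38.p6) was matched by symbol for 64 of the 84 members. The windows shown run from 60 bases before to 30 bases after the annotated start, on the coding strand. Capitals mark the longest run of C and T that begins with C. Where a symbol had several windows, the one with the longest run is shown. They were chosen, after the values were seen, among the members named by the rule for single genes, to show tracts of different length (Rps24, Rpl22, Rpl13a, Rplp2), the member that fell most (Rpl12), the member nearest to no change (Rpl41) and a paralog that rose (Rpl22l1).
Rps24, chr14:24490693-24490782, plus strand: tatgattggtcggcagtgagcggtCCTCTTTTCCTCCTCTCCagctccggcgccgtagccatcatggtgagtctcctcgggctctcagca
Rpl22, chr4:152325666-152325755, plus strand: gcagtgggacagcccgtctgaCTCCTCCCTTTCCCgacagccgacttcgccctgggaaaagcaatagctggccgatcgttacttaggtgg
Rpl13a, chr7:45128716-45128805, minus strand: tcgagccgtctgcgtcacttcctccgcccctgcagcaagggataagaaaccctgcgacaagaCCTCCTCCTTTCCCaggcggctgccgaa
Rplp2, chr7:141447591-141447680, plus strand: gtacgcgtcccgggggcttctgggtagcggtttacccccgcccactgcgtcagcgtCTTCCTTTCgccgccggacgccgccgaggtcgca
Rpl12, chr2:32961652-32961741, plus strand: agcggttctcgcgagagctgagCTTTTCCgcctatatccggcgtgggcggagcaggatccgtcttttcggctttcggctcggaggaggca
Rpl41, chr10:128549139-128549228, minus strand: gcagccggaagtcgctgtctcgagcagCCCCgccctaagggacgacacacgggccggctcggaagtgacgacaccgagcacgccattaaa
Rpl22l1, chr3:28805448-28805537, plus strand: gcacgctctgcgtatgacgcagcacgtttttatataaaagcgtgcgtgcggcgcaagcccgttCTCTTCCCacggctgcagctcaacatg

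The tract was 18 bases in Rps24, 14 in Rpl22 and in Rpl13a, 9 in Rplp2, 8 in Rpl22l1, 7 in Rpl12 and 4 in Rpl41. Counted from the annotated start, it began at -36 in Rps24, -39 in Rpl22, -38 in Rpl12 and -33 in Rpl41. In these genes the tract also ended before the annotated start, outside the annotated message. It began at -4 in Rplp2, 2 in Rpl13a and 3 in Rpl22l1. A tract of at least 8 bases was found for 42 of the 64 members (65.6%) and for 30.1% of all 27025 symbols. The median tract was 9 bases in the members and 6 over all symbols. Where a symbol had several windows, its longest tract counted, and for the motifs below a match in any window. The annotated start can miss the first base of the message, so a tract in the window is not a mapped TOP. The median log2 fold change, described below, was -0.19 in the 42 members with such a tract and -0.18 in the 22 without it. In the whole promoter window, 250 bases before to 50 after the start and on both strands, TGGGAA was found in 25% of members and in 28.3% of all symbols. The letters CACGTG, the E-box bound by Myc, were found in 9.38% of members and in 8.09% of all symbols. A match describes letters in a window and is not a binding site.

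The libraries held 21.4 to 30.5 M estimated read pairs. The misexpressed gene itself was measured at 0.00723 to 0.00909% of reads in the controls and at 15.9 to 17.2% in the Ikzf1 libraries, so the label of every library was matched by its level. All 10 progenitor markers were measured, with a summed level of 1851 to 1935 CPM (counts scaled to a common library size) in the controls and 1251 to 1270 CPM in the Ikzf1 libraries. The 5 markers of photoreceptor precursors were measured as well, at 754.3 to 878.5 CPM and 430.3 to 493.9 CPM. Bulk RNA does not show which of the sorted cells carried these transcripts. Red cell and lens markers did not reach the level needed for a test. Gene levels were compared with edgeR's quasi-likelihood test over 15539 genes with Benjamini-Hochberg adjustment and a threshold of 0.05. Of all genes tested, 59.3% changed, with a median log2 fold change of 0.00.

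The ribosomal protein genes took a smaller share of the transcripts in cells with Ikzf1. In TPM (a level per length, scaled to the same total in each library), computed without Ikzf1 transcripts, they summed to 9.088%, 8.858%, 9.008% and 8.893% of all transcripts in control libraries 1 to 4, and to 7.958%, 8.346%, 8.192% and 8.05% in Ikzf1 libraries 1 to 4. The groups did not overlap. The mean share of 8.96% ± 0.106 in controls compares with 8.14% ± 0.17 under Ikzf1 (SD, n = 4 each), a log2 ratio of -0.14. With the Ikzf1 transcripts in the denominator the share in the Ikzf1 libraries was 6.67% ± 0.112 and the log2 ratio -0.43, because that 1 message then fills part of the total. In bulk RNA, fewer cells with high levels and less RNA per cell cannot be told apart.

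Gene by gene, the fall was small and broad. Of the 84 members, all of which were tested, 68 fell (81%, against 29.9% of all genes tested) and 2 rose (2.38%, against 29.4%), of which Rps23rg1 owes most of its reads to the Ikzf1 libraries. The median log2 fold change of the members was -0.20, with quartiles of -0.28 and -0.12. All 4 Ikzf1 libraries lay below all 4 controls in 57 members, against 26.7% of all genes tested, and above them in 1 member, against 26.5%. All 77 core genes had a log2 fold change below 0, against 49.9% of all genes, and 65 of them passed the test, none of them as a rise. In 72 core genes the log2 fold change lay between -0.4 and 0, and the median core gene kept 87.1% of its control CPM. The median standard error of a core gene's log2 fold change was 0.044. Because 59.3% of all genes changed, fold changes are relative to the library scaling, and the same counts are given for other groups of genes further on.

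**Figure D1:**
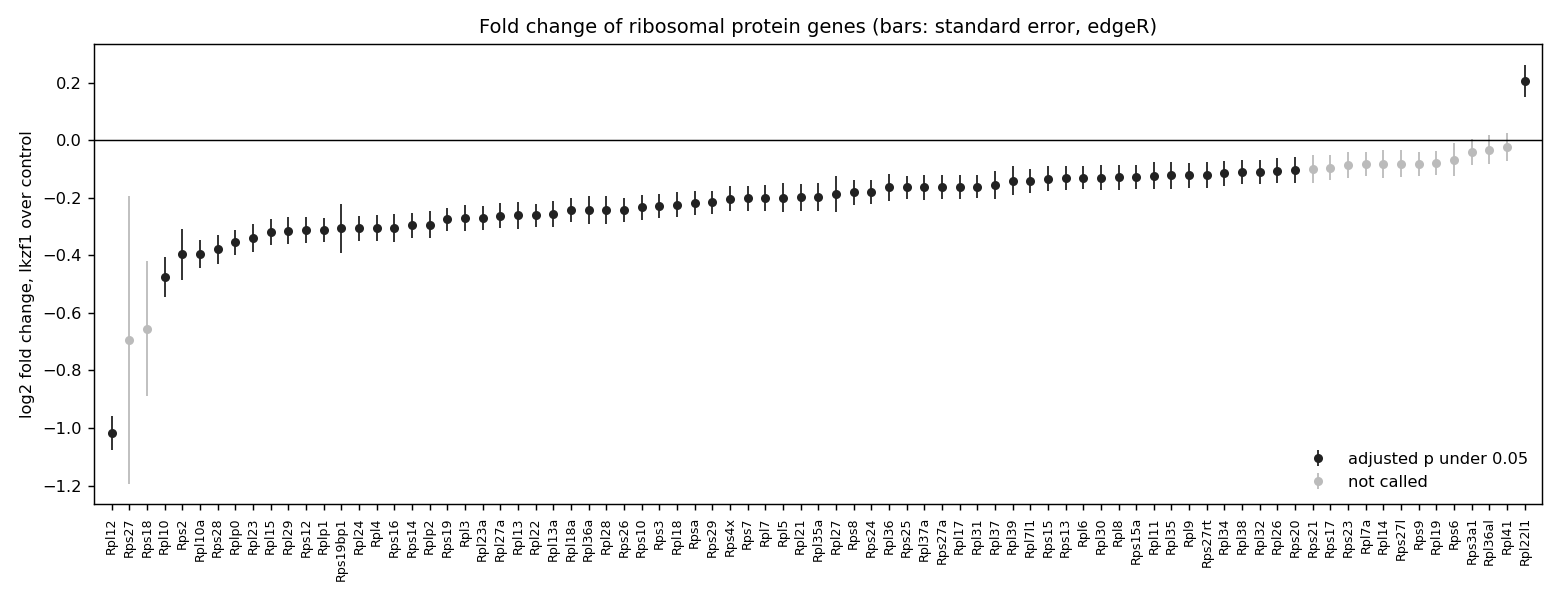
Log2 fold change of Ikzf1 over control libraries for 81 of the 84 members in order of size, with edgeR standard errors as bars and genes past an adjusted p of 0.05 in black; Rps23rg1, at 2.32, is left out for scale, and 2 other members are not drawn. Most members lie between -0.4 and 0, Rpl12 is lowest at -1.02, followed by Rps27 at -0.69 and Rps18 at -0.65, and Rpl22l1 is the only gene shown above 0.

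The shift was present in each library. The median member lay 0.204, 0.169, 0.176 and 0.225 below the control mean in Ikzf1 libraries 1 to 4, on the log2(CPM + 1) scale. The control medians lay at 0.033, -0.018, 0.016 and -0.018. In Ikzf1 libraries 1 to 4, 74, 67, 72 and 76 of the 84 members were lower than in every control. These counts per library were not made for all genes tested, of which 26.7% were lower in all 4 Ikzf1 libraries than in every control. Libraries 1 and 4 were the lowest, and the order of the 4 differed between genes.

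**Figure D2:**
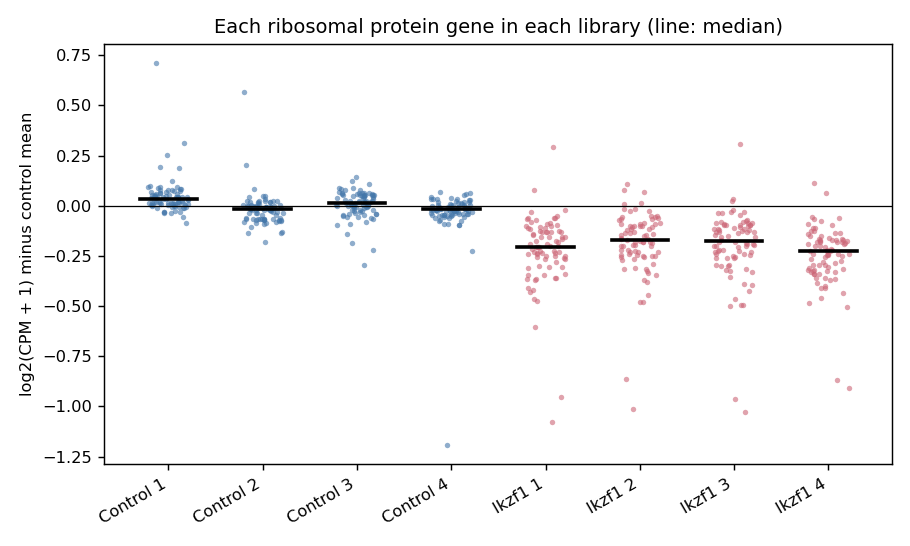
Each point is 1 member in 1 library, as log2(CPM + 1) minus the mean of the 4 controls; black lines are medians, and Rps23rg1 is left out for scale. The 4 Ikzf1 medians lie between -0.225 and -0.169, and the control medians between -0.018 and 0.033.

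These genes were short and abundant. The mean TPM of a core gene over the 8 libraries ran from 86.8 to 2212 with a median of 1049, against a median of 20.4 for all genes tested, and 44 core genes were above 1000 TPM. The mean transcript length of the core genes was 369 to 1489 bases with a median of 629, against 2474 for all genes tested. Of 1105 other protein-coding genes with transcripts under 1000 bases, 23.4% fell and 23.7% rose, with a median log2 fold change of 0.01. Among 112 other protein-coding genes with a mean TPM of at least 546, the lower quartile of the members, 44 fell (39.3%), 17 rose and the median was -0.06. Among the 41 of these that were also under 1000 bases, 18 fell (43.9%), 5 rose and the median was -0.10. The median of the members lay below those of all 3 groups.

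In the small subunit 23 of 31 genes fell, 0 rose and the median log2 fold change was -0.20. Rps28, a short protein near the mRNA exit channel, measured 99.5, 93.9, 105.5 and 98.6 CPM in control libraries 1 to 4 and 77.2, 79.6, 70.3 and 78.7 CPM in Ikzf1 libraries 1 to 4. The groups of Rps28 did not overlap, with a log2 fold change of -0.38 ± 0.0493 (SE; edgeR adjusted p = 1.43e-07). Rps2, near the mRNA entry channel, measured 278.2, 232.8, 200.6 and 229.0 CPM in the controls and 182.0, 188.0, 169.1 and 175.8 CPM in the Ikzf1 libraries, a log2 change of -0.40 (edgeR adjusted p = 0.00374). The controls of Rps2 spread from 200.6 to 278.2 CPM, and adding the reads of its named pseudogene copies moved its log2 fold change to -0.28.

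Among the other small subunit genes, Rpsa, also known as the laminin receptor, went from 614.7 ± 17.3 to 528.5 ± 7.75 CPM, and Rps19, the gene most often mutated in Diamond-Blackfan anaemia, from 297.6 ± 7.56 to 246.0 ± 6.08 CPM (SD, n = 4 each). Rps25, which many viral internal ribosome entry sites need, went from 295.2 ± 6.59 to 263.7 ± 3.73 CPM. Rps4x, the X-linked copy of Rps4, went from 622.8 ± 9.08 to 541.1 ± 22.8 CPM. In all 4 genes the highest Ikzf1 library was below the lowest control.

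The 8 small subunit genes that were not called include Rps6, the phosphorylated target of S6 kinase. Rps6 measured 504.6, 505.4, 506.2 and 516.1 CPM in the controls and 500.2, 511.8, 520.0 and 408.4 CPM in the Ikzf1 libraries. Ikzf1 library 4 alone was low, and the log2 fold change of -0.07 (edgeR adjusted p = 0.339) became 0.01 without it. Rps3a1 had a log2 change of -0.04 (edgeR adjusted p = 0.478), with Ikzf1 libraries both above and below the controls. Rps18 measured 64.75, 60.01, 42.18 and 44.35 CPM in the controls and 26.3, 38.0, 26.2 and 43.1 CPM in the Ikzf1 libraries. The spread within each group of Rps18 was large, and its log2 fold change of -0.65 missed the threshold (edgeR adjusted p = 0.0518). With the reads of its named pseudogene copies added, the value was -0.34 and passed (edgeR adjusted p = 8.72e-08), and it passed in 6 of the alternatives in all.

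In the large subunit 42 of 46 genes fell, 0 rose and the median log2 fold change was -0.20. Rpl12, whose protein sits at the base of the stalk next to Rplp0, fell most of all 84 members. Its level was 73.6, 63.1, 72.6 and 68.0 CPM in control libraries 1 to 4 and 32.3, 33.8, 33.4 and 37.4 CPM in Ikzf1 libraries 1 to 4. No library came near the other group, and the log2 fold change was -1.02 ± 0.0592 (SE; edgeR adjusted p = 1.15e-14). Rpl10, a protein that joins the large subunit late in its assembly, measured 144.7, 116.9, 143.0 and 128.4 CPM in the controls and 86.9, 94.8, 105.4 and 96.2 CPM in the Ikzf1 libraries. The groups did not overlap and the log2 fold change was -0.48 (edgeR adjusted p = 2.56e-05), or -0.33 with the reads of its named pseudogene copies added. Rpl10a, of the L1 stalk, measured 335.8, 326.5, 312.8 and 309.9 CPM in the controls and 230.9, 269.2, 226.9 and 250.3 CPM in the Ikzf1 libraries. Its log2 fold change was -0.39 (edgeR adjusted p = 7.45e-08), or -0.24 with the copies added.

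The 3 proteins of the P-stalk, which recruits translation factors to the ribosome, fell together with a median log2 fold change of -0.31. Rplp0, the scaffold of the stalk, measured 969.8, 922.7, 880.8 and 907.7 CPM in the controls and 712.1, 733.8, 718.5 and 713.4 CPM in the Ikzf1 libraries. The 2 groups of Rplp0 were more than 100 CPM apart, with a log2 fold change of -0.36 ± 0.0433 (SE; edgeR adjusted p = 4.52e-08). Its partners Rplp1 (361.2 ± 12.1 to 291.1 ± 10.7 CPM) and Rplp2 (282.6 ± 13.5 to 230.7 ± 15.5 CPM; SD, n = 4 each) fell as well, without overlap.

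Rpl5 and Rpl11, which with 5S rRNA form the particle that binds Mdm2 when ribosome assembly fails, fell by 0.20 and 0.12 on the log2 scale (edgeR adjusted p = 0.00151 and 0.0273). The Rpl11 groups overlapped, and its call was lost without control library 1 or 3 or Ikzf1 library 1 or 4. Rpl23, the third ribosomal protein known to bind Mdm2, fell from 257.6 ± 10.8 to 203.5 ± 14.7 CPM (SD, n = 4 each) without overlap. Rpl38, known for its part in the translation of Hox messages, fell by 0.11 on the log2 scale (edgeR adjusted p = 0.0267), and this call was lost without control library 1, 3 or 4 or Ikzf1 library 4. Rpl39, which lines the exit tunnel, fell by 0.14 (edgeR adjusted p = 0.0173), with overlapping groups and a call that was lost without control library 3 or Ikzf1 library 2 or 4. Rpl41, which encodes one of the shortest known proteins, did not pass: it measured 390.5, 353.1, 371.6 and 366.0 CPM in the controls and 343.0, 391.2, 338.0 and 386.2 CPM in the Ikzf1 libraries. Those groups overlapped fully, and the log2 fold change of -0.02 ± 0.0493 (SE; edgeR adjusted p = 0.715) changed sign in 4 alternatives. Rpl27, singled out after its values were seen, fell by 0.19 (edgeR adjusted p = 0.0161) but had a log2 change of -0.04 (edgeR adjusted p = 0.417) once the reads of its named pseudogene copies were added.

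**Figure D3:**
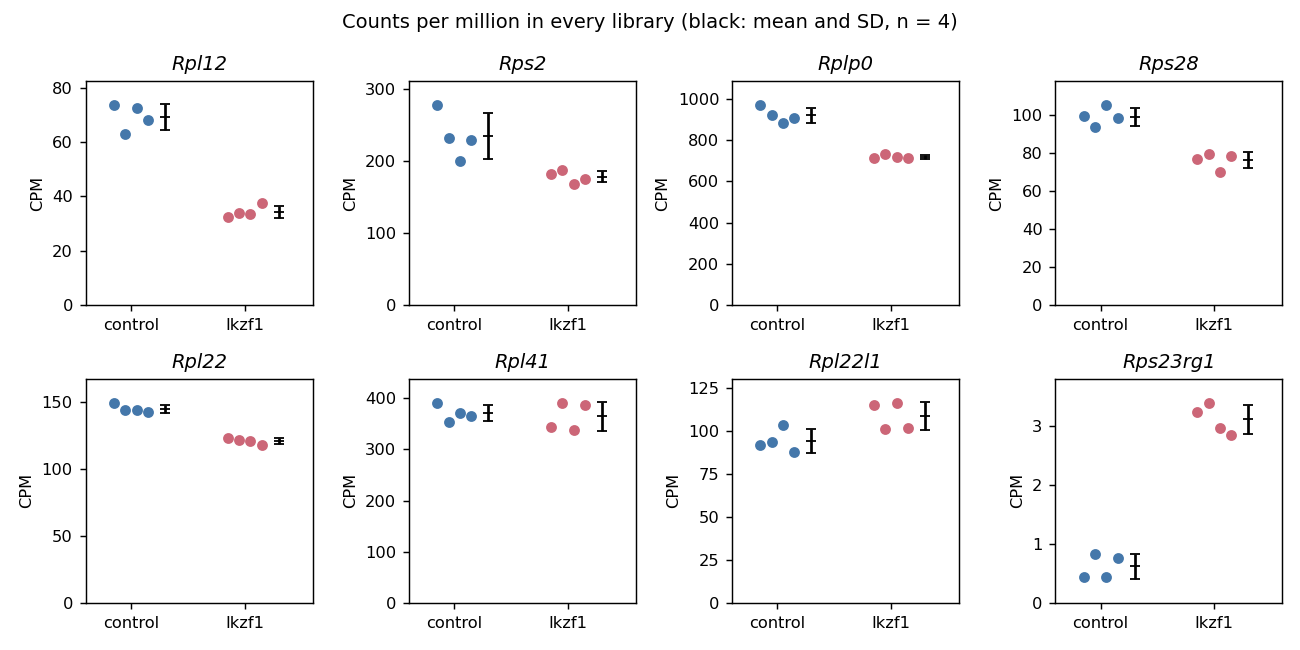
CPM of 8 members in each of the 4 control (blue) and 4 Ikzf1 (red) libraries, each axis starting at 0, with the mean and SD in black. Rpl12, Rps2, Rplp0, Rps28 and Rpl22 lie lower in all Ikzf1 libraries, Rpl41 overlaps, and Rpl22l1 and Rps23rg1 have higher means.

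Of the 7 genes outside the core, 3 fell, 2 rose and 2 were not called. Rpl22 binds RNA in the large subunit, and its paralog Rpl22l1 can take its place. Rpl22 measured 149.1, 143.5, 143.9 and 142.4 CPM in the controls and 122.8, 121.6, 120.9 and 117.9 CPM in the Ikzf1 libraries, a log2 fold change of -0.26 ± 0.0412 (SE; edgeR adjusted p = 3.38e-06) without overlap. Rpl22l1 measured 91.5, 93.2, 103.5 and 87.8 CPM in the controls and 115.1, 101.2, 116.2 and 101.4 CPM in the Ikzf1 libraries, a log2 fold change of 0.21 ± 0.0555 (SE; edgeR adjusted p = 0.00247). The Rpl22l1 groups overlapped through control library 3. The most abundant transcript of Rpl22 had a log2 ratio of Ikzf1 to control of -0.12, and its other transcripts together -0.51. Transcript usage of Rpl22, tested as described further on, was not called (diffSplice adjusted p = 0.33). Among the others, ENSMUST00000188151.1 varied between libraries. It held 15.4% of the reads of Rpl22 in control library 3, 0% in Ikzf1 library 4 and 28.5 to 38% elsewhere. The difference between the fold changes of the 2 genes was not tested.

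Rps23rg1, a retrogene of Rps23, is the other member counted as a rise. It was rare, with 64 reads summed over the controls and 307 over the Ikzf1 libraries, so the controls alone were under the read minimum of 80 and its values are given as a description. It measured 0.438, 0.832, 0.438 and 0.765 CPM in the controls and 3.23, 3.39, 2.96 and 2.84 CPM in the Ikzf1 libraries, without overlap. Its log2 fold change was 2.32. Rps27l and Rpl36al had log2 fold changes of -0.08 and -0.03 and were not called, while Rpl36a, the paralog of the latter, fell by 0.24 on the log2 scale. Rps19bp1 fell by 0.31 (edgeR adjusted p = 0.00297). Rpl7l1 fell by 0.14 (edgeR adjusted p = 0.0057), but had a log2 fold change of 0.06 with an offset for the average transcript length in each library, so its direction rests on that choice, whereas Rpl7 fell from 652.1 ± 8.72 to 568.0 ± 31.9 CPM. Reads of Rps27 and its retrogene Rps27rt could be split between them: Rps27 was listed at 12.9 ± 6.75 and 7.93 ± 2.59 CPM (SD, n = 4 each) with overlapping groups (edgeR adjusted p = 0.283), and Rps27rt at 242.6 ± 12.4 and 223.3 ± 7.71 CPM (edgeR adjusted p = 0.022, a call that was lost without control library 3 or 4 or Ikzf1 library 3 or 4). Near-identical copies matter for the whole family, since 49 named pseudogene copies of 33 members held reads equal to 16.8% of the reads of the members.

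Usage of transcripts within a gene was tested with limma's diffSplice on voom values (Benjamini-Hochberg adjustment over 8113 genes). It changed in 4 of the 46 members with at least 2 transcripts kept (8.7%, against 3.13% of all genes tested), among them Rpl12, Rpl13a and Rpl3. In Rpl12 the transcript ENSMUST00000126610.1 held 9.18%, 8.61%, 8.68% and 10.4% of the reads of the gene in control libraries 1 to 4 and 15.7%, 17.7%, 15.4% and 15.4% in the Ikzf1 libraries. The groups did not overlap (diffSplice adjusted p for the gene = 0.0011), while ENSMUST00000102811.9 went from 26.9% ± 3.57 to 18.1% ± 1.98 (SD, n = 4 each). In Rpl13a, ENSMUST00000210792.1 went from 9.14% ± 1.63 to 14.1% ± 0.908 (diffSplice adjusted p for the gene = 0.00226). In Rpl3, ENSMUST00000081650.14 went from 72.9% ± 0.877 to 78.9% ± 2.53 (diffSplice adjusted p for the gene = 0.0209). With 1 library left out 2 or 3 members were called (4.35% or 6.52%, against 2.03 to 2.74% of all genes tested). The lower count came without control library 2 or 3 or without Ikzf1 library 1 or 3.

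**Figure D4:**
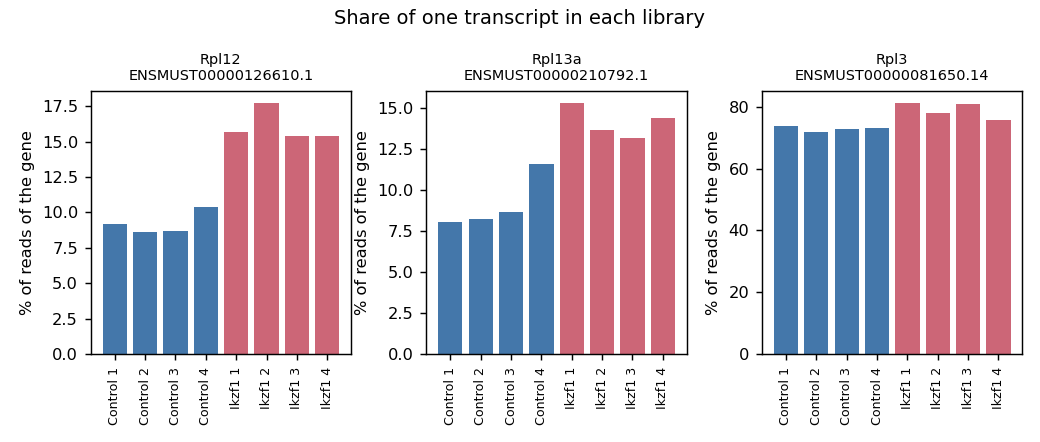
Percent of the reads of the gene held by 1 transcript of Rpl12, Rpl13a and Rpl3 in each of the 4 control (blue) and 4 Ikzf1 (red) libraries. The bars are higher in the Ikzf1 libraries for all 3 transcripts, without overlap.

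Transcripts other than the most abundant one of each member held 22.4%, 22.2%, 22.4% and 22.2% of member reads in control libraries 1 to 4 and 20.5%, 21.6%, 21.3% and 22.2% in the Ikzf1 libraries. Ikzf1 library 4 lay at the control level and the other 3 below it. In 48 of 77 members with other transcripts at 1 CPM or more, these had a lower log2 ratio of Ikzf1 to control than the leading transcript. The median log2 ratios were -0.25 for the others and -0.18 for the leading ones. The leading transcript was taken by its mean TPM in these same libraries. The same count was not made over all genes, so it is not shown to be particular to the members.

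The 3 ribosomal proteins with other names followed the core genes. Fau (228.7 ± 7.35 to 196.4 ± 6.14 CPM) encodes a fusion of a ubiquitin-like protein with a ribosomal protein, and Rack1 (704.6 ± 19.6 to 596.9 ± 7.7 CPM; SD, n = 4 each) a signalling scaffold on the small subunit. All 3 fell, with a median log2 fold change of -0.22. Of 25 other mRNAs of the TOP class, 19 fell (76%, against 29.9% of all genes tested) and 0 rose (against 29.4%). The median was -0.22, and the elongation factors Eef1a1, Eef1g and Eef2, named after their values were seen, were among those that fell. The largest falls in that list were those of Ccng1, a cyclin G gene that p53 induces (log2 fold change -1.34), and Vim, the intermediate filament vimentin of progenitors (-1.15), which is also high in glia. A list of 17 host lncRNAs of small nucleolar RNAs had 1 member with enough reads, Snhg4, which was not called (-0.42, edgeR adjusted p = 0.177).

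Many genes that build ribosomes fell as well. Of 112 ribosome biogenesis genes tested, 79 fell (70.5%, against 29.9% of all genes tested) and 4 rose (3.57%, against 29.4%). Their median log2 fold change was -0.23. Xpo1, the exporter that carries pre-ribosomal subunits out of the nucleus, fell by 0.88 and Rrp7a, a factor of small subunit assembly, by 0.88 on the log2 scale, while the helicase Ddx47 rose by 0.20 and the kinase Riok3 by 0.13. The genes of RNA polymerases I and III, which make ribosomal RNA and transfer RNA, were mixed, with 17 of 37 lower (45.9%, against 29.9% of all genes tested), 10 higher (27%, against 29.4%) and a median of -0.07. With an offset for transcript length, 11 were lower. Polr1b, the second largest subunit of RNA polymerase I, fell from 62.0 ± 2.27 to 32.4 ± 2.17 CPM (SD, n = 4 each) and Znrd1, another of its subunits, fell by 0.78 on the log2 scale. Taf1b, of the RNA polymerase I initiation factor, and Gtf3c4, of an RNA polymerase III factor, rose by 0.35 and 0.25. Of 32 translation initiation factors 13 fell (40.6%, against 29.9% of all genes tested) and 2 rose (6.25%, against 29.4%), with a median of -0.09. Eif3a fell by 0.46 and Eif2s1 by 0.40, and Eif4g3 and Eif1b rose by 0.25 and 0.23.

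Mitochondrial ribosomal proteins, which form the separate ribosome of the mitochondrion, showed no common direction: 22 of 78 fell and 23 rose, near the share of all genes, and the median log2 fold change was 0.01. Mrps31 (-0.97) and Mrpl24 (-0.78) fell, and Mrps36 (0.62) and Mrpl15 (0.32) rose.

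**Figure D5:**
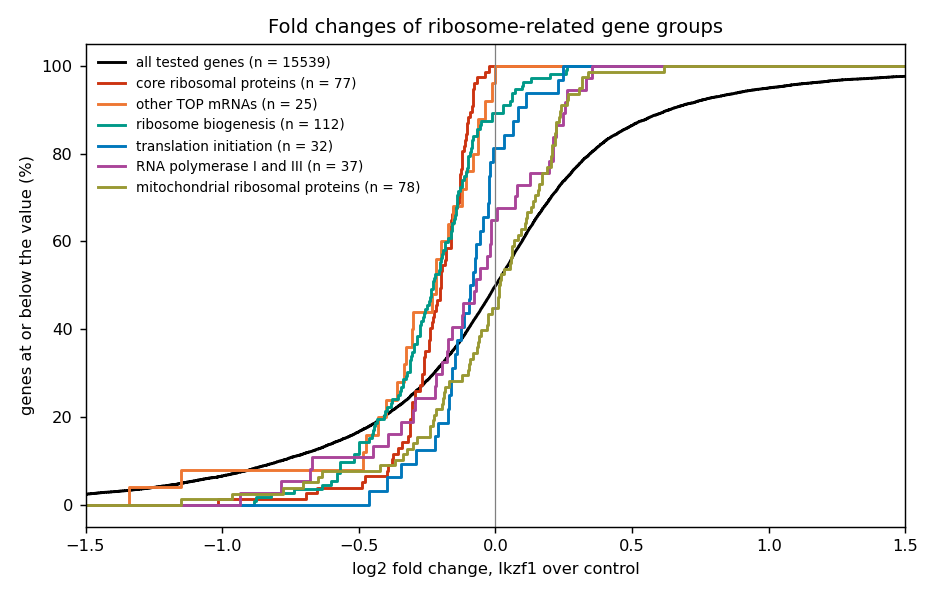
Percent of genes at or below each log2 fold change (Ikzf1 over control) for all genes tested and for 6 groups; the horizontal axis ends at -1.5 and 1.5. The curves of core ribosomal proteins, other TOP mRNAs and ribosome biogenesis genes lie left of 0 with medians of -0.20, -0.22 and -0.23, and the curve of mitochondrial ribosomal proteins crosses 0 near its middle.

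Among 44 regulators of ribosomal protein synthesis, 19 fell (43.2%, against 29.9% of all genes tested) and 16 rose (36.4%, against 29.4%). Myc, which drives transcription of ribosomal genes, fell from 73.1 ± 3.23 to 19.4 ± 2.29 CPM (SD, n = 4 each), a log2 change of -1.91 (edgeR adjusted p = 4.14e-19). Its relative Mycn had a log2 change of -0.06 (edgeR adjusted p = 0.435), changing sign with the transcript length offset. Mxd4, of the family that opposes Myc, rose from 51.5 ± 3.42 to 101.5 ± 7.38 CPM. Of the mTOR arm, Eif4ebp1, a repressor of cap-dependent translation, fell by 1.27 and Mtor rose by 0.19 on the log2 scale. Outside that arm, Rps6ka1, which encodes a kinase that phosphorylates Rps6, rose by 1.67. Larp1, which binds TOP messages, had a log2 change of 0.01 (edgeR adjusted p = 0.88), changing sign in 4 alternatives.

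Several lists of cell type markers moved in the same libraries. Of the 10 progenitor markers 7 fell and 1 rose, and all 5 photoreceptor precursor markers fell. Of all genes tested, 29.9% fell and 29.4% rose. Of 4 amacrine and horizontal cell markers tested, 2 fell and 0 rose. Their summed levels overlapped, at 175.1 to 226.2 CPM in the controls and 181.3 to 214.4 CPM in the Ikzf1 libraries. Endothelial markers summed to 507 to 577.4 CPM in the controls and 222.8 to 266.5 CPM in the Ikzf1 libraries, carried by Kdr and Flt1, while Cdh5 was too low to test. Of 4 ganglion cell markers tested (Pou4f2 was not), 3 rose and 1 fell. Their summed levels were 132.6 to 137.2 CPM in the controls and 69.3 to 75.2 CPM in the Ikzf1 libraries. That drop was carried by the 1 marker that fell, so the sum does not describe the other 3. Microglial markers stayed at or under 1.63 CPM in all libraries. Mitochondrial transcripts took 2.71% ± 0.22 of the control reads and, with the Ikzf1 reads left out of the total, 2.79% ± 0.151 of the reads in the Ikzf1 libraries (SD, n = 4 each), with overlapping groups. The part of the marker shifts in the values of the ribosomal protein genes was not tested.

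In the authors' deposited table, 64 members were lower and 2 higher at an adjusted p under 0.05, with a median log2 fold change of -0.19, and 81 had a value below 0. Of the members, 61 were lower both there and in the edgeR fit. The share of all genes called in the authors' table was not counted, so these counts have no background beside them.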

How the data were processed

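Per the submitters' processing notes, Salmon gave the authors' estimated counts per transcript from ribosomal RNA-depleted, paired-end libraries. The deposited files also give TPM, per the file headers. Salmon's version, index and use of strand are not given in the sources used here. The authors' deposited DESeq2 table gives, per the labels and its header, each gene's mean normalised count (a signal over all libraries), log2 fold change, Wald score, and p-values. Its coordinates are on GRCm38. CUT&RUN files were not used here.

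The files name no genes for transcripts, so runs of neighbouring transcripts were matched to the mean normalised counts of the authors' table. The join found 16582 of the 16815 genes whose mean was 5 or more (98.6%), holding 99.2 to 99.4% of the reads, and every member was among them.

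Estimated counts were summed to genes, rounded, filtered with filterByExpr, scaled by TMM and tested with edgeR 4.0.16 (quasi-likelihood, robust, two-sided, no covariate, R 4.3.3). Standard errors were derived from the F statistic and the log2 fold change. CPM use TMM-scaled library sizes. Transcripts with at least 5% of the reads of their gene and 10 reads in at least 4 libraries entered diffSplice (limma 3.58.1). The join and both tests were also tested on simulated data. Replicates are separate samples per the labels. An SD gives the spread between them, whereas the edgeR standard errors rest on dispersions that also draw on other genes.

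Members, gene lists and tests were chosen with earlier results of these data known. Single genes were named by a rule: the 10 members with the highest TPM, up to 8 called with the largest rise and 8 with the largest fall, a list of paralogs and proteins with other roles, members past 0.5 on the log2 scale, and in other lists the 2 called genes of smallest p in each direction plus a few regulators. Some genes named by the rule are counted but not reported singly here. Alternatives were DESeq2 1.42.0, other scalings, no filter, protein-coding genes alone, length corrections, a replicate block, leaving out each library, and, added after seeing the data, pseudogene copies merged with their parents.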

Additional observations from a re-analysis of the deposited data

Results flagged for a closer look

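In 10 of 148 groups of 4 libraries that were looked at, 1 library stood apart from the other 3 by Dixon's criterion, where chance alone gives about 1 in 20. Among the members, Rpl13a was low in Ikzf1 library 1 (383.7 CPM, others 415.9 to 417.7), Rps25 was high in the same library (269.3 CPM, others 261.1 to 262.2), and Rpl38 was low in Ikzf1 library 4 (139.2 CPM, others 146.9 to 147.8). Rps6 was high in control library 4 (516.1 CPM, others 504.6 to 506.2). Outside the members, Rrp7a was high in Ikzf1 library 2 (49.79 CPM), Znrd1 (19.78 CPM) and Eif3a (425.5 CPM) were high in Ikzf1 library 1, Taf1b was low in Ikzf1 library 4 (29.64 CPM) and Mrps31 was low in control library 2 (27.33 CPM). The share of reads from Ikzf1 was 15.9% in Ikzf1 library 1 and 17.1 to 17.2% in the others.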

How the results depend on the processing

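The number of members that fell was 53 to 73 over the alternatives, lowest with the length trend removed in each library and highest with DESeq2, and 0 core genes rose in any of them. The median log2 fold change of the members was -0.16 with the length trend removed, and -0.20 to -0.17 with 1 library left out, the latter without Ikzf1 library 4. Transcript usage changed in 2 to 3 members with 1 library left out (4.35% or 6.52%, against 2.03 to 2.74% of all genes tested). The count was 2 without control library 2 or 3 or Ikzf1 library 1 or 3. The lower RNA polymerase I and III genes numbered 11 with the transcript length offset. The log2 ratio of the summed TPM share was -0.43 with Ikzf1 in the denominator. With the replicate number as a block, 65 members fell, 2 rose, the median was -0.20 and 4 members changed in transcript usage; same-numbered libraries had correlations of -0.07 to 0.03, so the numbers were not treated as pairs.

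Log2 fold changes of single genes near 0 turned sign. Rpl41 gave 0.02 with the length trend removed, 0.00 without control library 1, and 0.01 without Ikzf1 library 1 and without Ikzf1 library 3. Rpl36al gave 0.01 with the length trend removed and 0.00 without Ikzf1 library 4, and Rps6 gave 0.01 without Ikzf1 library 4. With the length offset Rpl7l1 gave 0.06, Mycn 0.01 and Larp1 -0.02, and Larp1 gave -0.01 without control library 1, -0.00 without control library 3 and -0.01 without Ikzf1 library 4. Over 1348 combinations of a named gene and an alternative, 1296 kept direction and call, 27 lost the call, 12 gained it and 13 turned. With 1 library left out, the values ran from -0.05 to 0.01 for Rpl41, -0.06 to 0.00 for Rpl36al, -0.10 to 0.01 for Rps6 and -0.01 to 0.04 for Larp1. The cause was not tested. Calls for falls near 0.1 on the log2 scale, such as those of Rpl38 and Rpl11, were among those lost with 1 library left out, and near-identical copies limit the assignment of reads.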
